A study of Mus musculus with 2 samples.

Results

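Receptor tyrosine phosphatases other than CD45 were followed across the cells of mouse aorta. The 9 genes were Ptprb, Ptprm, Ptprg, Ptprj, Ptpra, Ptpre, Ptprk, Ptprs and Ptprf, chosen by symbol from the 32285 genes of the count matrices, and all 9 were found in both matrices. The study sorted aortic cells with beads against CD31, an endothelial surface protein, and sequenced them with 10x Genomics single-cell RNA-seq to follow endothelial CD45, encoded by Ptprc, in atherosclerosis. Both groups were ApoE-deficient mice (ApoE-/-/C57BL/6) on a Western diet, and both samples were aorta. The WT group is given with this background alone. In the EC-iCD45KO group CD45 was deleted from endothelial cells (EC) by a tamoxifen-inducible system. The labels do not give the Cre driver, the tamoxifen status of the WT mice, the age or sex of the mice, the number of animals or whether they were pooled. There was 1 library per group and hence no replicate, and a difference between groups cannot be told apart from one between preparations.

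A receptor tyrosine phosphatase spans the plasma membrane, carries adhesion-like domains outside the cell and removes phosphate from tyrosines inside it, opposing tyrosine kinases. Ptprb, also called VE-PTP, is the best known member in blood vessels, where it binds the angiopoietin receptor Tek and the junction protein VE-cadherin and keeps endothelial junctions tight. Ptprm and Ptprk bind copies of themselves on neighbouring cells, Ptprg binds contactins, Ptprj acts on growth factor receptors and Src family kinases, Ptpra and Ptpre are related phosphatases with short outer parts, and Ptprs and Ptprf belong to the LAR family, which binds heparan sulphate proteoglycans.

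Promoter stretches are shown for 3 members whose levels either ran together over the cell classes (Ptprm and Ptprg) or ran apart inside the endothelium (Ptprj). Each covers 180 bases, from 250 to 71 bases upstream of a RefSeq gene start (GRCm38.p6), printed in the direction of the gene. Capitals mark the ETS core GGAAG, searched on both strands, so the reverse strand match appears as CTTCC.
Ptprm, chr17:67354530-67354709, minus strand: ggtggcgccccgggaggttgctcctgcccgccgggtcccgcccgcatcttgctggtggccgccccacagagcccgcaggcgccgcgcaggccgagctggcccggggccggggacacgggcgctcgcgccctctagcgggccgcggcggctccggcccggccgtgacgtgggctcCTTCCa
Ptprg, chr14:11553303-11553482, plus strand: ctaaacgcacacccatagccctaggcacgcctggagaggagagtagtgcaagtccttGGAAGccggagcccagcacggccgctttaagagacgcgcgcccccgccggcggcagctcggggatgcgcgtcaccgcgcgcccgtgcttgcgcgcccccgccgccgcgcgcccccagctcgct
Ptprj, chr2:90580666-90580845, minus strand: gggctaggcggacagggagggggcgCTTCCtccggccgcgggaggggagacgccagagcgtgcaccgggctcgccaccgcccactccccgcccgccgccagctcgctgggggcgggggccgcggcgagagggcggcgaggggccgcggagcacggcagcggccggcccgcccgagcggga
Each of these 3 stretches holds 1 match. Ptprg and Ptprj have 2 windows each in the table, and the one at the start farther upstream in the gene is shown. The window not shown holds 2 matches of the ETS core for Ptprj and 0 for Ptprg. Over all 13 member windows the core was present in 7, and it was present in 51% of the 32851 windows of this length in the table, so a match did not set these genes apart. The RBPJ core TGGGAA, also searched on both strands, was present in 2 of the 13 windows and in 16.3% of all windows. The 2 motifs can overlap in their letters, and which start sites were used in these cells was not measured. The table held an entry for 8 of the 9 members, and Ptprb had none.

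The WT library held 39849 barcodes and 92058043 UMIs, which mark captured RNA molecules, and the EC-iCD45KO library 30278 and 88967918. The median UMI count per barcode was 1548 in WT and 1405 in EC-iCD45KO, and the median mitochondrial share was 1.90% and 3.03%. Of the barcode sequences, 340 occurred in both libraries. Cells were grouped without the 9 genes into 31 clusters, of which 23 fell into 13 classes named X-like from marker genes. EC-like cells numbered 3360 in WT and 4144 in EC-iCD45KO, and all 14 EC markers were detected in them in both libraries, with a sum of 4756 and 5332 CPM (UMIs of a gene per 1000000 UMIs of the cells). B-like cells numbered 5736 and 337, and macrophage-like cells numbered 3976 and 10258. RNA of other classes was also present in EC-like cells: the 11 macrophage markers summed to 3129 CPM in WT and 4218 CPM in EC-iCD45KO, and the 8 B markers to 884.6 and 73.8 CPM. Ptprc itself measured 279.9 CPM in WT EC-like cells and 110.6 CPM in EC-iCD45KO ones. The labels do not say which part of Ptprc was deleted, so this count does not check the genotype.

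Ptprb (ENSMUSG00000020154, chr10:116275523-116389535, plus strand, GRCm38) had a larger share of its UMIs in EC-like cells than any of the other 8 genes. EC-like cells held 73.2% of all its UMIs in WT and 78.4% in EC-iCD45KO. Cells of unnamed clusters held 16.2% and 4.49% of them. Such cells numbered 9939 in WT and 1316 in EC-iCD45KO, so no difference between libraries is read from shares of a gene's UMIs. The Ptprb level in EC-like cells was 792.2 CPM in WT (95% counting interval 772 to 812) and 706.1 CPM in EC-iCD45KO (690 to 723). The lymphatic EC-like cells came next, with 179.1 and 206.6 CPM, below the EC-like cells in both libraries. Every other class stood lower still in both libraries. By the mean of the libraries the highest of them were erythroid-like cells, at 32.7 and 174.7 CPM, and fibroblast-like cells, at 41.4 and 86.5 CPM. In WT alone Schwann-like (41.0 CPM) and plasma-like cells (40.5 CPM) stood above the erythroid-like cells. After each cell was thinned to 1000 UMIs, a Ptprb UMI was found in 46.9% of WT EC-like cells (44.9% to 48.9%) and in 43.4% of EC-iCD45KO ones (41.5% to 45.3%). In B-like cells, taken as a class that should lack the gene, the shares were 0.61% and 0.32%. The median depth before thinning was 1456 and 1303 UMIs in EC-like cells and 2011 and 2550 in B-like cells. Thinning left out 911 WT and 1448 EC-iCD45KO cells of the EC-like class that were shallower, and without thinning the EC-like shares were 57.6% and 49.1%.

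Ptprm (ENSMUSG00000033278, chr17:66666947-67354457, minus strand), which binds itself across cell contacts, had 59.5% of its UMIs in EC-like cells in WT, and 66.0% in EC-iCD45KO. Unnamed cells held 17.2% and 6.36% of them. The EC-like level was 607.8 CPM in WT and 688.9 CPM in EC-iCD45KO. Lymphatic EC-like cells followed with 192.2 and 224.7 CPM. Chondrocyte-like (128.5 and 168.2 CPM), Schwann-like (141.2 and 83.3 CPM) and erythroid-like cells (45.8 and 198.8 CPM) came below them in both libraries, with ranges that overlap. SMC-like cells held 69.0 and 80.0 CPM, and macrophage-like cells 12.1 and 12.5 CPM. The SMC-like class carried smooth muscle markers, summing to 14220 and 23540 CPM, and also fibroblast markers, summing to 10740 and 7937 CPM. The thinned share of EC-like cells with a UMI was 39.6% in WT and 41.7% in EC-iCD45KO, against 0.32% and 0.64% of B-like cells.

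Ptprg (ENSMUSG00000021745, chr14:11553532-12242041, plus strand), a receptor for contactins, had an EC-like level of 328.4 CPM in WT, and of 372.2 CPM in EC-iCD45KO. No other class reached 100 CPM in either library: the fibroblast-like cells held 71.7 and 94.97 CPM, the lymphatic EC-like cells 50.2 and 88.8 CPM and the SMC-like cells 68.4 and 61.9 CPM. Its lymphatic level thus lay below the EC-like level in both libraries and overlapped that of fibroblast-like, SMC-like and chondrocyte-like cells. The thinned share was 23.7% and 27.4% in EC-like cells, and 0.15% and 0.64% in B-like cells.

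Ptprk (ENSMUSG00000019889, chr10:28074820-28597397, plus strand), a relative of Ptprm, was highest in the lymphatic EC-like cells. They held 174.7 CPM in WT (138 to 217) and 286.3 CPM in EC-iCD45KO (243 to 335), from 80 and 158 UMIs. EC-like cells came second with 142.4 and 149.2 CPM. The counting intervals of the 2 classes overlap in WT (134 to 151 for EC-like cells), so the WT order is not clear beyond counting error. Chondrocyte-like, fibroblast-like and SMC-like cells lay between 56.5 and 86.9 CPM in all libraries and their ranges over the libraries overlap. Macrophage-like cells held 1.70 and 2.22 CPM. After thinning, 10.0% and 10.9% of EC-like cells had a Ptprk UMI, against 0.22% of B-like cells in WT. None of 311 B-like cells of EC-iCD45KO did, which allows a share of up to 0.965%.

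Ptpre (ENSMUSG00000041836, chr7:135537481-135686293, plus strand) shared the lymphatic peak. Lymphatic EC-like cells held 161.6 CPM in WT and 239.2 CPM in EC-iCD45KO, neutrophil-like cells 119.7 and 136.3 CPM and Schwann-like cells 100.2 and 109.5 CPM, and these 3 ranges did not overlap. The counting intervals of the WT values did overlap, with 126.9 to 202.9, 95.2 to 148.6 and 62.8 to 151.7 CPM. EC-like cells held 65.4 and 81.9 CPM, overlapping the range of macrophage-like cells (75.3 and 95.9 CPM) and under that of dendritic-like cells (88.1 and 86.1 CPM). The thinned share was 11.9% and 28.1% in lymphatic EC-like cells, from 151 and 121 cells, and 5.35% and 7.27% in EC-like cells. No class was taken to lack Ptpre. The lowest level was in B-like cells, where 1.32% and 1.93% of cells had a UMI.

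Ptprj (ENSMUSG00000025314, chr2:90429754-90580647, minus strand), which acts on growth factor receptors, was broad. Macrophage-like cells held 288.3 CPM in WT and 348.9 CPM in EC-iCD45KO, dendritic-like cells 289.5 and 343.8 CPM, neutrophil-like cells 233.6 and 327.4 CPM and EC-like cells 299.9 and 259.0 CPM. These 4 ranges overlap, so the myeloid classes and the endothelium were not ordered. T/NK-like cells were lowest, with 36.2 and 68.0 CPM. The macrophage-like class, larger in EC-iCD45KO, held 27.0% of all Ptprj UMIs in WT and 60.3% in EC-iCD45KO. Unnamed cells, fewer in EC-iCD45KO, held 22.6% and 2.43%. In EC-like cells the thinned share was 20.2% and 19.3%. The lowest class, T/NK-like, had 3.03% and 5.81%, with median depths of 2034 and 2751 UMIs.

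Ptpra (ENSMUSG00000027303, chr2:130450278-130556124, plus strand), an activator of Src family kinases, was present throughout: all 13 classes lay between 35.0 and 138 CPM in both libraries. EC-like cells held 123.7 and 122.7 CPM, macrophage-like cells 138 and 117 CPM and Schwann-like cells 118 and 136 CPM, which overlap. Plasma-like and neutrophil-like cells were lowest, at 46.3 and 44.4 CPM and at 35.0 and 58.4 CPM. After thinning, 11.5% and 11.9% of EC-like cells had a Ptpra UMI, beside 2.34% and 5.09% of neutrophil-like cells, the lowest share, whose median depth was 1089 and 1309 UMIs.

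Ptprs (ENSMUSG00000013236, chr17:56412426-56476483, minus strand) and Ptprf (ENSMUSG00000033295, chr4:118208213-118291405, minus strand), the LAR family members, were low in EC-like cells. Ptprs measured 74.5 and 69.7 CPM in SMC-like cells, 63.8 and 75.0 CPM in Schwann-like cells and 63.7 and 62.1 CPM in chondrocyte-like cells, against 11.1 and 13.4 CPM in EC-like cells. Ptprf was highest in Schwann-like cells, with 31.9 CPM in WT from 7 UMIs and 60.7 CPM in EC-iCD45KO from 51 UMIs. Lymphatic EC-like cells followed with 17.5 and 27.2 CPM, from 8 and 15 UMIs, overlapping chondrocyte-like cells (15.3 and 29.3 CPM) and above SMC-like cells (12.9 and 10.9 CPM). In EC-like cells Ptprf had 10 WT UMIs and 11 EC-iCD45KO UMIs. SMC-like cells held 30.6% and 30.9% of all Ptprs UMIs and 37.5% and 38.2% of all Ptprf UMIs. Macrophage-like cells held 16.6% of the Ptprs UMIs in WT and 37.6% in EC-iCD45KO, more than SMC-like cells in the latter. Unnamed cells held 20.6% and 4.45% of the Ptprs UMIs and 20.3% and 11.6% of the Ptprf UMIs. The thinned share of EC-like cells with a Ptprs UMI was 1.18% and 1.48%, against 0.28% and 0.96% of B-like cells. In EC-iCD45KO the EC-like interval (1.062% to 2.015%) lay within that of B-like cells (0.199% to 2.793%), so these classes were not set apart there. For Ptprf, without thinning, the share of EC-like cells was 0.298% in WT (0.143% to 0.547%) and 0.241% in EC-iCD45KO (0.116% to 0.443%), and no difference was detectable at this depth. Thinned, it was 0.286% and 0 of 2696 cells, which allows up to 0.111%, and no difference is read from it.

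**Figure D1:**
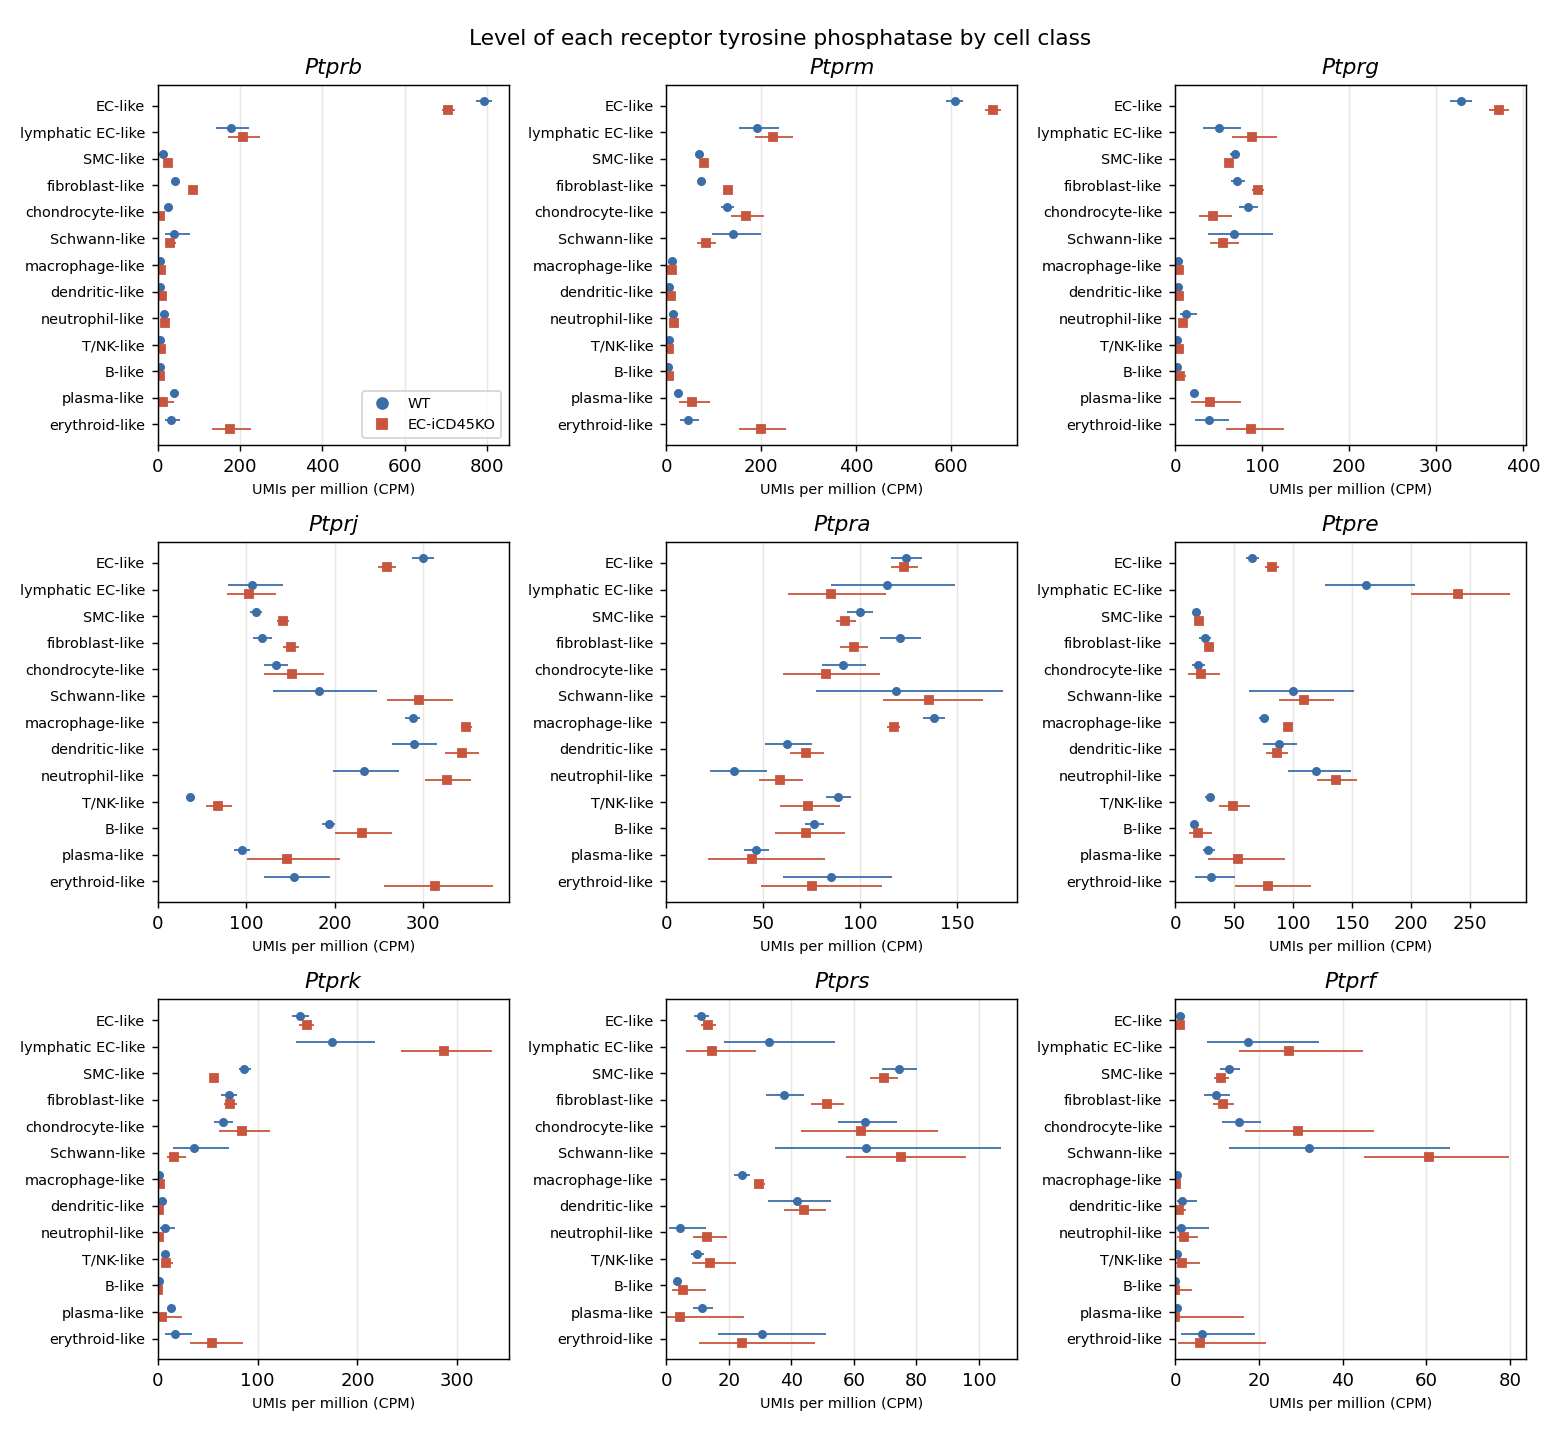
CPM (x axis) of each of the 9 genes in the 13 named classes (y axis), with 1 point per library, WT as circles and EC-iCD45KO as squares, and bars for the exact Poisson 95% interval of the count. Ptprb, Ptprm and Ptprg peak in EC-like cells, Ptpre and Ptprk in lymphatic EC-like cells, and Ptprs and Ptprf lie low in EC-like cells.

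Likeness of level over the 13 classes in 2 libraries was described with Pearson's r of log2(CPM + 1) at 26 points, among 6963 genes that reached 50 CPM at 1 point. The points share 2 libraries and a common pool of RNA. The genes nearest to Ptprb were Esam (r = 0.97), Egfl7 (0.97) and Emcn (0.96), all 3 of which were among the EC markers that named the class. Among the members the closest pair was Ptprm and Ptprg (r = 0.97), each nearer to the other than to any gene outside the members, whereas Ptprb and Ptprm reached 0.83. The genes named here lie outside the members. Ptprm was most like Fbxl7 (0.95), 9530026P05Rik (0.95) and Shroom4 (0.95), and Ptprg most like Tcf7l1 (0.96), Cavin1 (0.95) and Shroom4 (0.95). Ptprk was most like Adamts1, Wwtr1 and Mpzl1 (0.94, 0.94 and 0.93). Ptprf was most like Pappa, Kif21a and Plce1 (0.94, 0.92 and 0.91), and Ptprs most like Arl3, Tspan3 and Spire1 (0.90, 0.89 and 0.88). The broad members had weaker neighbours. For Ptprj they were Stx7, Rhbdf2 and Ctsh (0.86, 0.86 and 0.83), for Ptpra Svbp, Mocs2 and Txndc9 (0.86, 0.84 and 0.84), and for Ptpre Ston2, Arrb1 and Pxn (0.85, 0.85 and 0.83).

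The EC-like class was made of 3 clusters, each called by its leading gene. The Ackr1 cluster, also led by Rbp7 and Fabp4, held 1737 WT and 2759 EC-iCD45KO cells, the Gpihbp1 cluster 798 and 907, and the Sfrp1 cluster, also led by Bmx, Gja5 and Edn1, 825 and 478. Ptprj and Ptprg ran in opposite directions over them. Ptprj measured 765.7 CPM in the Sfrp1 cluster of WT and 1044 CPM in that of EC-iCD45KO, against 179.7 and 203.3 CPM in the Ackr1 cluster and 94.9 and 75.3 CPM in the Gpihbp1 cluster. Ptprg measured 595.8 and 597.9 CPM in the Gpihbp1 cluster, 228.0 and 228.3 CPM in the Ackr1 cluster and 99.4 and 128.5 CPM in the Sfrp1 cluster. In both genes the library ranges of the 3 clusters did not overlap.

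The Sfrp1 cluster held 24.6% of EC-like cells in WT and 11.5% in EC-iCD45KO, but 65.8% and 52.8% of the EC-like Ptprj UMIs. Thinned shares gave the same order: 43.0% of Sfrp1-cluster cells in WT and 53.8% in EC-iCD45KO had a Ptprj UMI, against 6.39% and 5.06% in the Gpihbp1 cluster. The Gpihbp1 cluster was instead the place of Ptprg, with 42.8% and 49.0% of its cells having a UMI, against 8.73% and 11.1% of Sfrp1-cluster cells. The median depth was 2551 and 3230 UMIs in the Gpihbp1 cluster, and 1470 and 1560 UMIs in the Sfrp1 cluster. Ptprk was also highest in the Gpihbp1 cluster, with 228.9 and 219.1 CPM, against 91.2 and 113.7 CPM in the Ackr1 cluster and 95.9 and 42.8 CPM in the Sfrp1 cluster. Ptprb was lowest in the Ackr1 cluster, with 473.9 and 373.7 CPM, against 1034 and 1005 CPM in the Gpihbp1 cluster and 919.7 and 866.3 CPM in the Sfrp1 cluster. The Ackr1 cluster also held the most macrophage marker RNA, 5544 and 7440 CPM, against 998 and 1010 CPM in the Gpihbp1 cluster and 2575 and 3684 CPM in the Sfrp1 cluster. The EC markers there summed to 2883 and 3232 CPM. Per 100 of their UMIs, Ptprb measured 16.4 and 11.6 in the Ackr1 cluster, against 15.5 and 13.4 in the Gpihbp1 cluster, so on this scale the Ackr1 cluster was not the lowest in WT, and the part of this RNA in the lower Ptprb level was not tested.

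**Figure D2:**
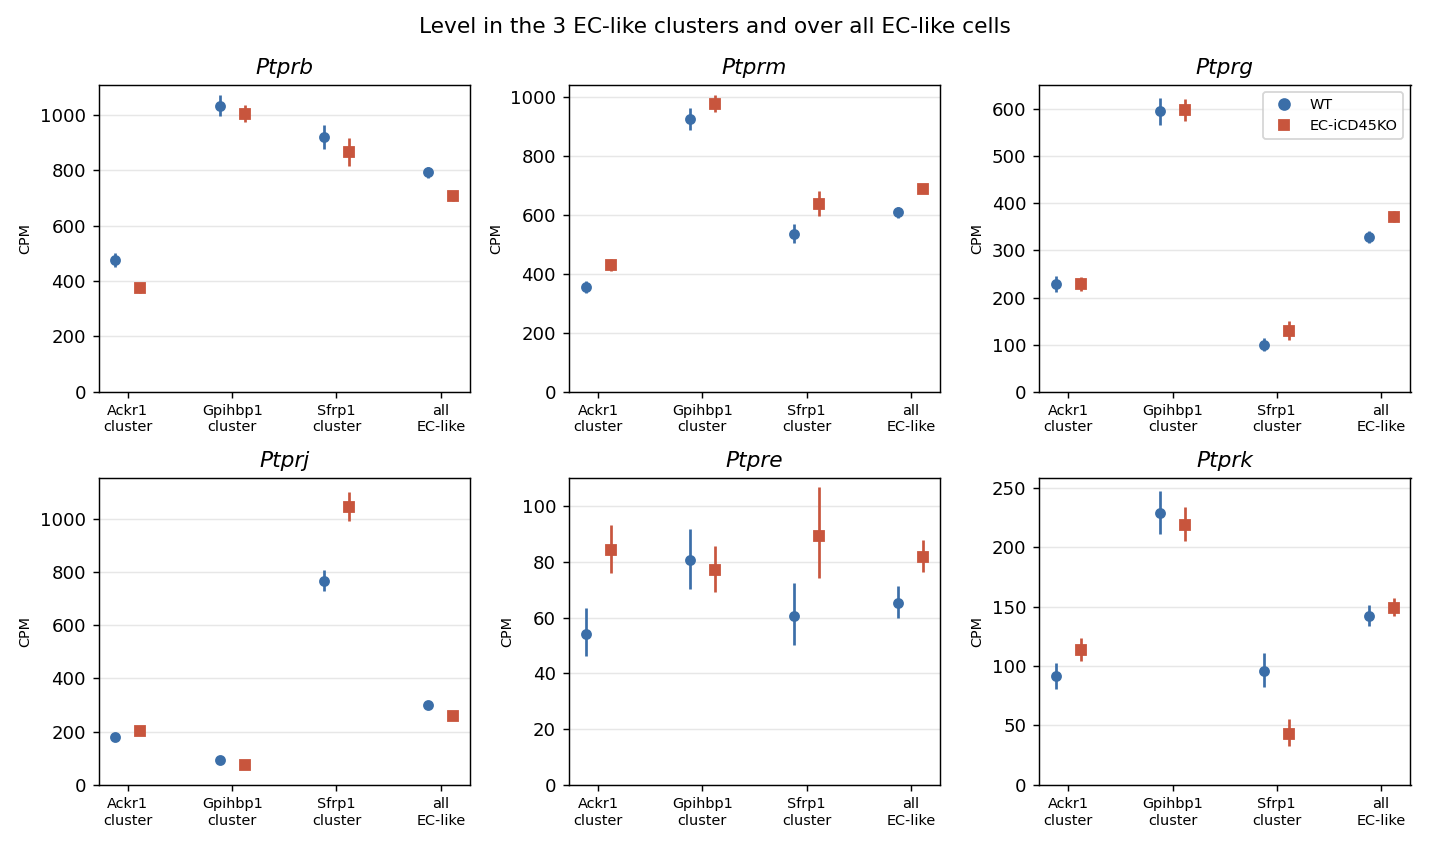
CPM (y axis) of 6 members in the 3 EC-like clusters and over all EC-like cells (x axis), WT as circles and EC-iCD45KO as squares, with exact Poisson 95% intervals. Ptprj is highest in the Sfrp1 cluster and Ptprg in the Gpihbp1 cluster, in both libraries.

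The comparison of EC-iCD45KO with WT asks whether loss of endothelial CD45 goes with a change in the other receptor phosphatases of the same cells. A log2 ratio of at least 0.5 or at most -0.5, about 1.41-fold, was taken as the size to call, for genes whose mean over the libraries reached 5 CPM. In EC-like cells 0 of the 8 members above that minimum passed it, where 15.5% of 10948 genes did (Ptprf lay under the minimum). The median log2 ratio of the 8 was 0.12, against -0.01 over all genes tested. With 1 library per group there was no test, and the intervals below cover counting error only.

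Ptpre had the largest ratio of the members above the minimum, 0.32 (0.16 to 0.49), from 65.4 to 81.9 CPM. Ptprm and Ptprg were slightly higher in EC-iCD45KO, both with a log2 ratio of 0.18 (0.13 to 0.23 and 0.11 to 0.25). The sum of the EC markers was higher as well, 4756 and 5332 CPM, and per 100 of their UMIs Ptprm measured 12.8 and 12.9, Ptprg 6.91 and 6.98, and Ptprb 16.7 and 13.2. The part of the marker sum in these ratios was not tested. Ptprb was slightly lower, with -0.17 (-0.22 to -0.12) from 6091 and 7179 UMIs (-0.01 without doublet removal), and so was Ptprj, with -0.21 (-0.29 to -0.13). For Ptpra the ratio was -0.01 (-0.13 to 0.11), for Ptprk 0.07 (-0.05 to 0.18) and for Ptprs 0.27 (-0.13 to 0.68), whose intervals include 0. Ptprc, the gene deleted, had a ratio of -1.34 (-1.44 to -1.23). It was also lower in classes outside the endothelium, with -1.24 in fibroblast-like, -0.99 in SMC-like and -0.79 in macrophage-like cells, and higher in B-like (0.74) and neutrophil-like cells (0.91). In EC-like cells the B and T/NK markers were lower with it, at 884.6 and 73.8 CPM and at 417.4 and 80.4 CPM, and their part in the Ptprc ratio was not tested.

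**Figure D3:**
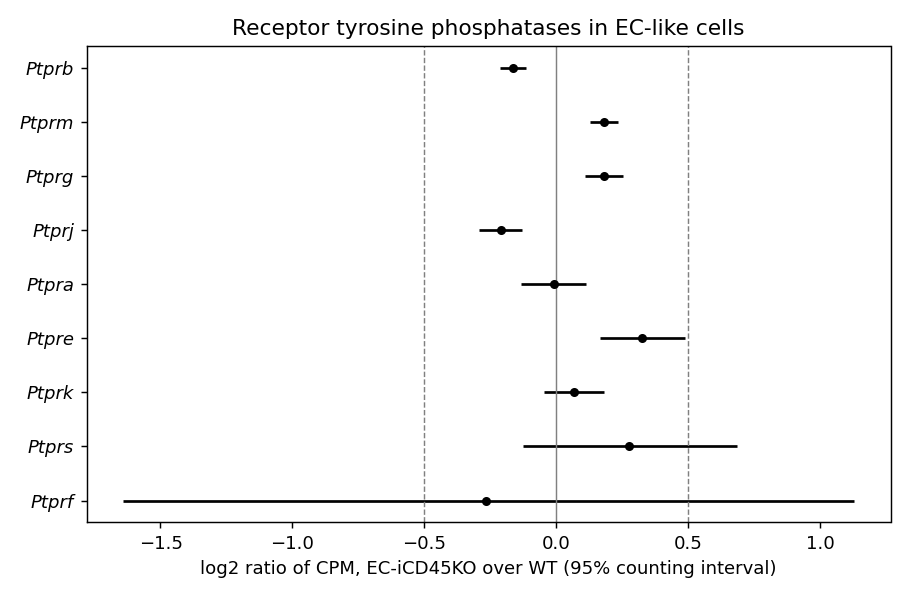
The log2 ratio of CPM, EC-iCD45KO over WT (x axis), of each of the 9 genes (y axis) in EC-like cells, with exact conditional 95% intervals that cover counting error only and dashed lines at 0.5 and -0.5. The 8 genes above the minimum lie between -0.21 and 0.32, and Ptprf, with 10 and 11 UMIs, has the widest interval.

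The other ratios were also taken within the clusters. The Ptprb ratio was -0.34 (-0.45 to -0.24) in the Ackr1 cluster, beside -0.04 (-0.11 to 0.03) in the Gpihbp1 cluster and -0.09 (-0.19 to 0.02) in the Sfrp1 cluster, so the lowest of the 3 ratios was that of the Ackr1 cluster, where the macrophage markers summed to 5544 and 7440 CPM. For Ptprg the ratio was 0.00 in the Ackr1 cluster (-0.14 to 0.14) and 0.00 in the Gpihbp1 cluster (-0.08 to 0.09). In the Sfrp1 cluster, with 99.4 and 128.5 CPM, it was 0.37 (0.07 to 0.67), and with equal weights for the clusters the pooled 0.18 became 0.05. Ptprm was higher in EC-iCD45KO in each, with 354.2 and 429.2 CPM in the Ackr1 cluster, 924.7 and 976.6 CPM in the Gpihbp1 cluster and 534.5 and 637.1 CPM in the Sfrp1 cluster, at ratios of 0.28 (0.17 to 0.39), 0.08 (0.01 to 0.15) and 0.25 (0.12 to 0.39). Per 100 EC marker UMIs it was lower in the Gpihbp1 cluster, 13.9 and 13.1. These differences between clusters were not tested.

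For Ptprj the pooled ratio of -0.21 had the sign of the Gpihbp1 cluster and not that of the Sfrp1 cluster. Within the Sfrp1 cluster Ptprj was higher in EC-iCD45KO, with a log2 ratio of 0.45 (0.34 to 0.55), and within the Gpihbp1 cluster it was lower, with -0.33 (-0.57 to -0.10). In the Ackr1 cluster the ratio was 0.18 (0.02 to 0.34). The Sfrp1 cluster made up less of the EC-like cells in EC-iCD45KO, and with equal weights for the 3 clusters the Ptprj ratio was 0.35 in place of -0.21. The Ackr1 value turned to -0.08 without doublet removal, to -0.04 at the finer clustering (Leiden resolution 2) and to -0.46 in the 50% of cells with the least marker RNA of other classes, so no direction is given for it. The Sfrp1 value stayed between 0.39 and 0.54 under the 8 alternatives run on it. Macrophage markers in this cluster summed to 2575 CPM in WT and 3684 CPM in EC-iCD45KO. In macrophage-like cells they summed to 18870 and 18260 CPM, and Ptprj measured 288.3 and 348.9 CPM there. The part of macrophage RNA in the Ptprj ratio was not tested.

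Ptprk had the lowest ratio of any member above the minimum in an EC-like cluster. In the Sfrp1 cluster it measured 95.9 CPM in WT from 190 UMIs and 42.8 CPM in EC-iCD45KO from 57 UMIs, a log2 ratio of -1.16 (-1.62 to -0.73). The thinned share with a Ptprk UMI there was 6.51% in WT and 2.28% in EC-iCD45KO. Under the 8 alternatives the ratio lay between -1.29 and -0.88. In the Ackr1 cluster the same gene had a ratio of 0.32 (0.10 to 0.54), and in the Gpihbp1 cluster -0.06 (-0.21 to 0.08). Ptpre had ratios of 0.64 (0.37 to 0.91) in the Ackr1 cluster and 0.56 (0.18 to 0.94) in the Sfrp1 cluster, and -0.06 (-0.31 to 0.19) in the Gpihbp1 cluster. Its Sfrp1 value was under 0.5 in 3 of the 8 alternatives, the lowest being 0.37. The macrophage markers summed to 5544 and 7440 CPM in the Ackr1 cluster, 2575 and 3684 CPM in the Sfrp1 cluster and 998 and 1010 CPM in the Gpihbp1 cluster, and macrophage-like cells held Ptpre at 75.3 and 95.9 CPM. Their part in the Ptpre ratios was not tested.

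By count, 3 of the 8 members above the minimum passed the size in the Sfrp1 cluster (Ptpre and Ptprs higher, Ptprk lower), where 28.7% of genes did. In the Ackr1 cluster 2 of 8 passed it (Ptpre and Ptprs, both higher), where 26.5% of genes did, and in the Gpihbp1 cluster 1 of 8 (Ptprs, lower), where 17.4% did. Ptprs rested on 37 and 91 UMIs in the Ackr1 cluster, 26 and 25 in the Sfrp1 cluster and 22 and 20 in the Gpihbp1 cluster. Its ratio was 0.67 (0.10 to 1.26), 0.52 (-0.33 to 1.37) and -0.77 (-1.72 to 0.17) in that order, and the last 2 intervals include 0. The median log2 ratio of the members was 0.23 (Ackr1 cluster), -0.05 (Gpihbp1 cluster) and 0.31 (Sfrp1 cluster), and over all genes -0.03, -0.01 and -0.04. Counts of 1 to 3 among 8 genes are near these backgrounds and are no result about the members as a group.

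Outside the endothelium Ptprb was the member that passed the size in each of the 3 other classes compared. In fibroblast-like cells 2 of 9 passed it, where 24.1% of genes did. They were Ptprb, with 41.4 CPM in WT and 86.5 CPM in EC-iCD45KO and a log2 ratio of 1.06 (0.82 to 1.31), and Ptprm, with 73.4 and 130.3 CPM and a ratio of 0.83 (0.64 to 1.02). At Leiden resolution 2 these were 0.61 and 0.45, the second short of the size to call. In SMC-like cells 2 of 9 passed it, where 17.2% of genes did. Ptprb was higher, with 13.3 and 24.6 CPM and a ratio of 0.89 (0.59 to 1.20), and Ptprk was lower, with 86.9 and 56.5 CPM (ratio -0.62, interval -0.77 to -0.48). Among macrophage-like cells 1 of the 6 members above the minimum passed it, where 10.6% of genes did. It was Ptprb, at 5.81 and 8.28 CPM (ratio 0.51, interval 0.17 to 0.87). The stricter cell filter moved that last value to 0.31. These counts too are near their backgrounds.

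EC marker RNA was higher in EC-iCD45KO in these 3 classes, to different extents. The sum of the 14 EC markers in fibroblast-like cells was 409.0 CPM in WT and 689.1 CPM in EC-iCD45KO, with none at 0 in either library. Per 100 UMIs of EC markers, fibroblast-like cells held 10.1 and 12.6 Ptprb UMIs, beside 16.7 and 13.2 in EC-like cells. In SMC-like cells the EC markers summed to 281.0 and 314.7 CPM, and Ptprb measured 4.72 and 7.81 per 100 of their UMIs. In macrophage-like cells the EC markers summed to 105.6 and 122.9 CPM. In erythroid-like cells, where Ptprb measured 32.7 and 174.7 CPM, the EC markers summed to 398.8 and 783.1 CPM, with Robo4 at 0 in WT, and Ptprb measured 8.20 and 22.3 per 100 of their UMIs. Ptprm in fibroblast-like cells measured 17.9 and 18.9 on this scale. The part of EC marker RNA in the Ptprb ratios outside the endothelium was not tested.

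In lymphatic EC-like cells 5 of 9 members passed the size, Ptprg, Ptpre, Ptprk and Ptprf higher and Ptprs lower, where 47.7% of 11227 genes did, so this count is near its background as well. Over the 13 named classes the ratio was above 0 in 12 for Ptpre, in 11 for Ptprm and in 11 for Ptprj. Of the 7993 genes with a UMI in every class and library, 10.4% had a ratio above 0 in at least 11 classes. For Ptpra it was below 0 in 10 classes, as it was in at least 10 for 24.5% of those genes.

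**Figure D4:**
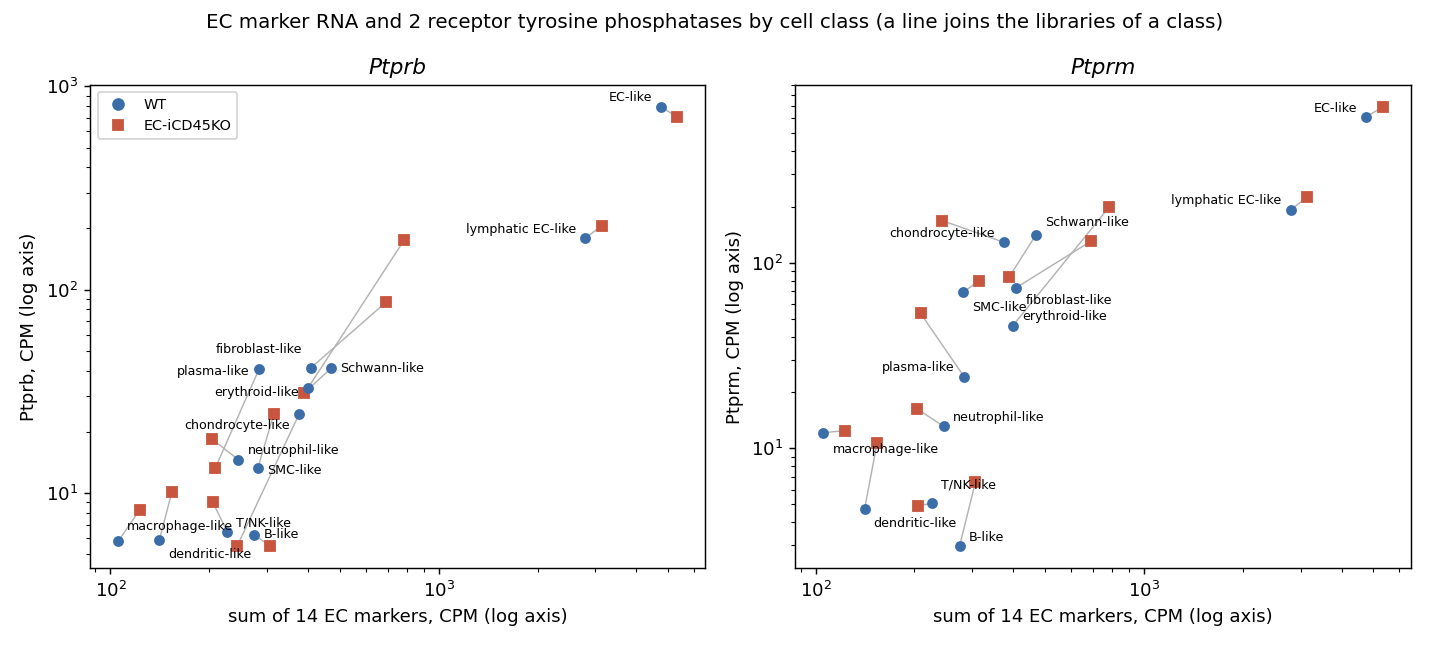
CPM of Ptprb and Ptprm (y axes, log scale) against the summed CPM of 14 EC markers (x axes, log scale) in the 13 named classes, with circles for WT, squares for EC-iCD45KO and a grey line joining the libraries of a class, labelled at its WT point. The fibroblast-like and erythroid-like points lie higher on both axes in EC-iCD45KO than in WT.

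The Ptprk difference in SMC-like cells lay in 1 of the 2 SMC-like clusters. The cluster led by Wnt16 held 100 CPM in WT (92.8 to 109) and 57.2 CPM in EC-iCD45KO (52.3 to 62.4), a log2 ratio of -0.81 (-0.98 to -0.64), whereas the cluster led by Cnn1 held 56.96 and 55.10 CPM, a ratio of -0.05 (-0.34 to 0.24). The difference between the clusters was not tested. Without doublet removal the SMC-like ratio of Ptprk was -0.46, and with equal weights for the 2 clusters -0.49, both short of the size to call. Over the class the SMC markers summed to 14220 CPM in WT and 23540 CPM in EC-iCD45KO, and the fibroblast markers to 10740 and 7937 CPM. Their part in the Ptprk ratio was not tested. The Cnn1 cluster also held the larger Ptprb ratio, 0.995 (0.62 to 1.38), beside 0.31 (-0.25 to 0.89) in the Wnt16 cluster. In the fibroblast-like clusters the Ptprb ratio was 1.27 (0.996 to 1.56) in the one led by Saa3 and 0.20 (-0.38 to 0.81) in the one led by Ren1, and the Ptprm ratio 1.22 (0.98 to 1.47) and 0.13 (-0.17 to 0.45).

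Genes that work with the members were read from lists in EC-like cells. Of the 9 partners of Ptprb, 8 had the minimum of 5 CPM, 2 passed the size upwards and 0 downwards, with a median log2 ratio of 0.36. Over all genes in these cells 15.5% passed the size in either direction and the median was -0.01, which holds as the background for each list below. The EC markers summed to 4756 CPM in WT and 5332 CPM in EC-iCD45KO, and their part in these ratios was not tested. Cdh5, which encodes VE-cadherin and was also an EC marker, measured 368.6 CPM in WT and 533.4 CPM in EC-iCD45KO, a ratio of 0.53 (0.47 to 0.60). Angpt2, a ligand of Tek, measured 20.6 and 38.3 CPM, a ratio of 0.90 (0.63 to 1.17). Tek itself had a ratio of 0.13 (0.02 to 0.24), from 148.7 and 162.5 CPM, and Kdr, the main VEGF receptor of endothelium, 0.42 (0.33 to 0.51).

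Of the 16 ligands of the family, 10 had the minimum, 2 passed the size upwards (Ptn and Gpc4) and 2 downwards (Thbs1 and Sdc1), with a median of 0.02. Thbs1, which encodes a secreted glycoprotein that binds Ptprj, measured 127.9 CPM in WT and 82.0 CPM in EC-iCD45KO, a ratio of -0.64 (-0.78 to -0.51). Hspg2, which encodes the proteoglycan perlecan, had a ratio of 0.27, Sdc3, a syndecan, 0.47 and Agrn, agrin, -0.39. Of the 5 contactins in the list none reached the minimum. Of the 6 kinases on which members act, 4 had the minimum, 0 passed upwards and 1 downwards (Pdgfrb, 6.11 and 4.13 CPM), with a median of -0.11. The Pdgfrb ratio was -0.57 (-1.20 to 0.07), an interval that includes 0. Egfr, just under the minimum at 3.38 and 6.49 CPM, had a ratio of 0.94 (0.27 to 1.66). The Src family kinases Fyn and Yes1 had ratios of -0.11 and -0.10.

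Among the other phosphatases, 14 of 17 non-receptor genes had the minimum, 0 passed the size upwards and 3 downwards, with a median of -0.04. The 3 were Ptpn22 (58.7 and 12.7 CPM, ratio -2.21), Ptpn7 (-0.99) and Ptpn6 (-0.76), all known from blood cells, and the B and T/NK markers in EC-like cells were lower with them, at 884.6 and 73.8 CPM and at 417.4 and 80.4 CPM. Their part in these ratios was not tested. Ptpn12 had a ratio of 0.37 and Ptpn11, which encodes the phosphatase SHP2, 0.22. Of the 12 other receptor phosphatases 11 were in the matrices and 3 had the minimum: Ptprc (-1.34), Ptprr (-0.37, 44.6 and 34.4 CPM) and Ptpro (0.25).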

How the data were processed

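Single-cell RNA-seq was read from 2 libraries of aortic cells bound to CD31 beads, WT and EC-iCD45KO, 1 per group. The deposited matrices hold whole-number UMI counts per gene and barcode, made by the authors with Cell Ranger 7.1.0 on mm10, per the submitters' processing notes. Whether intronic reads were counted and whether counting used strand is not given in the sources used here. This matters for Ptprm, Ptprg and Ptprk, which span 688, 689 and 523 kb, and for Ptprm, Ptprg, Ptprj, Ptpra and Ptpre, which other genes overlap on the opposite strand. Positions are from GENCODE M21 on GRCm38, in which 32158 of the 32285 identifiers matched. Promoter stretches are from RefSeq.

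Cells with 300 or more genes and no more than 10% of UMIs mitochondrial were kept, 39503 in WT and 28960 in EC-iCD45KO. Scrublet at its own threshold marked 2 and 0 of them, so it had not worked, and the 10% with the highest scores were removed instead, leaving 35553 and 26064. The libraries were clustered together without batch correction in scanpy 1.11.5 (2000 variable genes without any tyrosine phosphatase gene, 30 principal components, 20 neighbours, Leiden resolution 1, leidenalg 0.10.2). Clusters were named from 18 marker lists. To be named, a cluster had to exceed the median cluster by a mean of 1 on the log2 scale, to lead the next class by 0.75, and to have 3 markers at 10 CPM, 50 cells, 10 cells in each library and no other class ahead among its 10 leading genes. The naming thresholds were chosen with the data in view, and 9939 WT and 1316 EC-iCD45KO cells stayed unnamed.

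UMIs were summed per class and library and scaled to CPM, counts per 1000000 UMIs. Counts carry exact Poisson, shares Clopper-Pearson and log2 ratios conditional binomial intervals, all at 95% and for counting error only. No test between groups was possible. A share of 0 carries the limit that 3 counts would give. Named genes were all members, Ptprc, the 2 highest and 2 lowest ratios of each list at a mean of 20 CPM or more, and the 3 genes most like each member. Kdr, Tek, Ptpro, Pdgfrb, Egfr, Ptpn7, Ptn, Gpc4 and Sdc1 were named after their values were seen. The members, lists and markers were chosen with earlier results of these data known. The ratio interval and the thinning were tested on simulated counts with sampling error alone. The simulation held no spread between cells in the level of a gene and none between replicate libraries, so it cannot show the effect of such spread. Python 3.11.15, numpy 2.4.6, scipy 1.17.1, R 4.3.3, edgeR 4.0.16 (TMM factors) and DESeq2 1.42.0 (size factors) were used.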

Additional observations from a re-analysis of the deposited data

Results flagged for a closer look

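Several log2 ratios, EC-iCD45KO over WT, pointed up in 1 cell class and down in another, and none of these differences was tested. Ptprb had ratios of 0.89 in SMC-like, 1.06 in fibroblast-like and 0.51 in macrophage-like cells, against -0.17 in EC-like cells. The EC-like value was -0.01 without doublet removal, the fibroblast-like value 0.61 at Leiden resolution 2 and the macrophage-like value 0.31 with the stricter cell filter. EC marker sums were also higher in EC-iCD45KO in these 3 classes outside the endothelium, and their part was not tested. Ptprj had ratios of 0.35 in SMC-like, 0.35 in fibroblast-like and 0.28 in macrophage-like cells, against -0.21 in EC-like cells, a pooled value that became 0.35 once each of its 3 clusters counted equally. Within the EC-like cells Ptprj had 0.18 in the Ackr1 cluster and 0.45 in the Sfrp1 cluster, against -0.33 in the Gpihbp1 cluster. The Ackr1 value was -0.08, -0.04 and -0.46 under 3 alternatives, so no direction is given for it. Ptprk had 0.32 in the Ackr1 cluster, against -1.16 in the Sfrp1 cluster.

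Signal was also present in unnamed clusters that the comparisons do not use, with a counting interval above 0. Only ratios with such an interval are listed, and the share of all genes past the size was not computed for these clusters. In the cluster led by Igfbp2, with 211 WT and 347 EC-iCD45KO cells, the ratio was 0.55 for Ptprm, 1.45 for Ptpre and 1.05 for Ptprk. In the cluster led by Higd1b, with 65 and 79 cells, it was 2.62 for Ptprm, 1.08 for Ptprg and 2.17 for Ptprs, with 3 and 4 WT UMIs behind the first and the last. In the cluster led by Slurp1, with 3256 and 537 cells, it was 0.40 for Ptprj, 0.71 for Ptpre and 0.98 for Ptprs. In the cluster led by Pclaf, with 4105 and 300 cells, it was 0.63 for Ptpre.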

How the results depend on the processing

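In EC-like cells the count of members past the size was 0 under each of the 9 alternatives, and the median log2 ratio of the members lay between 0.05 (the 50% of cells with the least marker RNA of other classes) and 0.16 (DESeq2 size factors), beside 0.12. Of 72 single ratios of members in EC-like cells under these alternatives, 58 stayed within the counting interval, 13 moved further and 1 turned its sign: Ptprj, 0.35 with equal weights for the 3 clusters. Of 384 ratios in the EC-like clusters and the 3 other classes compared, 30 moved and 3 turned their sign, all for Ptprj in the Ackr1 cluster: -0.077 without doublet removal, -0.039 at Leiden resolution 2 and -0.46 in the 50% of cells with the least other marker RNA. The cause of each was not tested. At Leiden resolution 2 the fibroblast-like ratios were 0.61 for Ptprb and 0.45 for Ptprm. No thinning, or thinning to 2000 UMIs, moved 34 of 36 shares of EC-like cells, which depend on depth. No paired analysis was possible because only 1 library was made per group. Depth limits Ptprf, with 10 and 11 UMIs in EC-like cells, and Ptprs in the EC-like clusters.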

Other observations

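Ptprj had a log2 ratio above 0 in 11 of the 13 named classes, as had 10.4% of 7993 genes in at least that many. Such a count is not particular to it, since Ptpre reached 12 and Ptprm 11. For Ptprj the other two classes were EC-like cells at -0.21 and lymphatic EC-like cells at -0.05 (-0.63 to 0.53). The EC-like value became 0.35 with equal weights for its 3 clusters, and the Sfrp1 cluster stood at 0.45 (0.34 to 0.55). Ptprj measured 36.2 CPM in the T/NK-like cells of WT and 68.0 CPM in those of EC-iCD45KO, a ratio of 0.91 (0.54 to 1.26), 182.2 and 295.3 CPM in Schwann-like cells, a ratio of 0.70 (0.21 to 1.22), and 233.6 and 327.4 CPM in neutrophil-like cells, a ratio of 0.49 (0.23 to 0.75). The T/NK-like class pools 3 clusters, led by Izumo1r (2515 WT and 167 EC-iCD45KO cells), Gzma (825 and 124) and Il17a (517 and 141). Their mix thus differed between the libraries, and its part in the T/NK-like ratio was not tested. The sum of macrophage markers was higher in EC-iCD45KO in each named class except the macrophage-like cells (18870 and 18260 CPM), for example 1576 and 8991 CPM in Schwann-like cells and 583.0 and 669.7 CPM in T/NK-like cells. It was 3129 and 4218 CPM in EC-like cells and 1843 and 4889 CPM in lymphatic EC-like cells. Its part in the Ptprj ratios was not tested. Ptpra ran the other way, with a ratio below 0 in 10 of 13 classes, in 2 of them with an interval below 0: -0.32 in fibroblast-like and -0.24 in macrophage-like cells. In neutrophil-like cells it was 0.74 (0.09 to 1.44), from 24 and 111 UMIs.

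In the lymphatic EC-like cells, of which there were 232 in WT and 222 in EC-iCD45KO, the ratio was 0.82 (0.08 to 1.60) for Ptprg, from 23 and 49 UMIs, 0.71 (0.32 to 1.12) for Ptprk and 0.57 (0.14 to 0.996) for Ptpre, from 74 and 132 UMIs. Ptprf (0.64) and Ptprs (-1.18) were past 0.5 in size too, with intervals that include 0. Macrophage markers in these cells summed to 1843 and 4889 CPM. Their part in the Ptpre ratio was not tested. Ptprk measured 1.70 and 2.22 CPM in macrophage-like cells.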
